A study of Mus musculus with 8 samples.

Results

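The antioxidant defence genes described here are 10 genes chosen by name, Sod1, Sod2, Cat, Gpx1, Gpx3, Txnip, Srxn1, Gclc, Nqo1 and Hmox1. All 10 had a row among the 32531 gene symbols of the count table, and all 10 were among the 15082 genes with enough counts to be tested. Islet RNA of 4 controls (RIP-Cre+, Rosa26-rtTA+, tetO_NICD-) was compared with islet RNA of 4 β-tetO-NICD mice (RIP-Cre+, Rosa26-rtTA+, tetO_NICD+). Mice of both groups drank Dox for 8 weeks and were of a mixed C57BL/6J, 129X1/SvJ and BALB/c background, and the labels give no age. The Cre driver is an insulin promoter, so that with Dox the intracellular domain of Notch1 (NICD), the active form of the receptor, was induced in β cells, whereas RNA was taken from whole islets.

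Cells continuously form superoxide as a by-product of respiration. Superoxide dismutases turn it into hydrogen peroxide, which catalase, the glutathione peroxidases and the peroxiredoxins then break down. The glutathione peroxidases draw on glutathione for this and the peroxiredoxins on thioredoxin. The transcription factor NRF2, held back by Keap1, raises many of these genes through a short DNA element, the antioxidant response element. β cells are known for low catalase and glutathione peroxidase activity and for Txnip, a glucose-induced inhibitor of thioredoxin.

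Of the 10 genes, 3 were higher in β-tetO-NICD islets (Gpx3, Cat and Txnip) and 0 were lower, at a threshold of 0.05 on the Benjamini-Hochberg adjusted p of the edgeR quasi-likelihood test over all genes tested. Among all 15082 genes tested, 6.76% were called, 4.19% higher and 2.57% lower. Values are given in CPM, counts scaled to a common library size by TMM, and log2 FC stands for the log2 fold change of β-tetO-NICD over control. Single libraries are listed in the order 1, 2, 3 and 4 for controls and 1, 2, 4 and 5 for β-tetO-NICD. The 2 groups of 4 libraries did not overlap in 4 of the 10 genes, the 3 called genes and Nqo1, against 16.1% of all genes tested. Without adjustment, 5 of the 10 genes had a p under 0.05, the 4 named and Sod1, against 31.6% of all genes tested. The median log2 FC was 0.35 over the 10 genes and 0.0008 over all genes tested, and 6 of the 10 genes had a positive log2 FC, as had 7548 of all 15082 genes tested. The 5 libraries with no more than 1 count of the Y-linked gene Eif2s3y, termed those without Eif2s3y counts below, were also fitted alone. There 0 of the 10 genes passed with edgeR's test, and 104 of all genes were called. Cat, Gpx3 and Txnip had an unadjusted p under 0.05 in that fit, as had 12.5% of the genes tested there. DESeq2 on all 8 libraries called 5 of the 10, adding Sod1 and Nqo1, against 18.2% of the genes to which it gave an adjusted p. The same shares of all genes belong beside the counts of further redox genes below: 6.76% for edgeR's calls, 31.6% for an unadjusted p under 0.05 and 18.2% for DESeq2's calls.

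Total counts ran from 22430941 to 25950164 in controls and from 21701223 to 26413146 in β-tetO-NICD libraries, so that 3 counts, taken as the floor of detection, equalled at most 0.151 CPM. Notch1 ranged from 41.6 to 64.95 CPM among controls and reached 573 to 1321 CPM with the transgene. The β-tetO-NICD columns are numbered 1, 2, 4 and 5, and the mice 1 to 4, so libraries 4 and 5 were used as members of their group only. Eif2s3y was read in control 2, in control 4 and in library 5 of the β-tetO-NICD group, and no more than 1 count was found elsewhere. Libraries also differed in how their expression varied with transcript length. Spearman's correlation between a gene's deviation from the 8-library mean and its length lay between 0.42 and 0.50 for controls 1, 2 and 4 as for β-tetO-NICD library 1, and between −0.52 and −0.17 for control 3 and β-tetO-NICD libraries 2, 4 and 5, across 14659 genes, which are not independent replicates. Log2 ratios of group means are given for several genes within the libraries of positive trend (controls 1, 2 and 4 against β-tetO-NICD library 1), within those of negative trend (control 3 against β-tetO-NICD libraries 2, 4 and 5), and within the libraries with and without Eif2s3y counts, as values with no test. Summed α cell markers ranged from 12060 to 43150 CPM in controls and from 55490 to 70470 CPM in β-tetO-NICD libraries, with 2 of 5 markers called higher, and β cell markers from 156400 to 197200 and from 71840 to 171600 CPM, with 3 of 8 called lower. In RNA of whole islets, fewer cells of a type and less RNA per cell cannot be told apart. The 10 acinar markers had no call and the groups overlapped in their sum (34840 to 69910 and 29150 to 106900 CPM). Markers of δ and PP cells summed to 7592 to 13340 CPM in controls and 6710 to 20100 CPM with the transgene, and 1 of 3, Hhex, was called higher. Red cell markers reached 867 CPM in β-tetO-NICD library 5, where Sod1 and Gpx1 were also highest, and at most 207 CPM in any other library. With the acinar score as a covariate, Gpx3, Cat and Txnip were again called. What part other cell types had in the results was not tested.

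The promoters of Txnip and its relative Arrdc4, which both rose, and of Srxn1 and Sod1, which hold letters of the antioxidant response element, are shown as the 250 bases before the RefSeq transcription start (GRCm38.p6), written 5′ to 3′ on the gene's strand. Capitals mark the letters searched on both strands. These were TGANNNNGC, a loose form of the antioxidant response element, found in 35.2% of 32851 mouse promoters of this length, TGGGAA, the core bound by RBPJ, the DNA-binding partner of NICD, found in 21.6%, and CACGNG repeated after a gap of 5 bases, a form of the carbohydrate response element bound by the glucose-responsive factors ChREBP and MondoA, found in 0.0457%. The letters of the last form were chosen with the Txnip promoter in view. No letters of 2 motifs overlap in the promoters shown. Promoters were given for 8 of the 10 genes, Hmox1 and Gclc being the exceptions.

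Txnip (chr3:96557707-96557956, + strand): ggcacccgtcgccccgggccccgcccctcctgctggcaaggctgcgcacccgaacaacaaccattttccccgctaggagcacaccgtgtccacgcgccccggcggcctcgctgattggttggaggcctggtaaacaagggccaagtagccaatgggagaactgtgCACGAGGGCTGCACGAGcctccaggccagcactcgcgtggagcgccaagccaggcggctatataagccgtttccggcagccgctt
Arrdc4 (chr7:68749239-68749488, - strand): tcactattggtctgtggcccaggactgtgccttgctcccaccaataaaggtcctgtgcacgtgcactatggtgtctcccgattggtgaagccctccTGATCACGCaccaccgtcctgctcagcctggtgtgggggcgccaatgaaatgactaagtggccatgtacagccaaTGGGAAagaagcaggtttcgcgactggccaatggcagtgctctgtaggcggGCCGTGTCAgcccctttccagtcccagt
Srxn1 (chr2:152105274-152105523, + strand): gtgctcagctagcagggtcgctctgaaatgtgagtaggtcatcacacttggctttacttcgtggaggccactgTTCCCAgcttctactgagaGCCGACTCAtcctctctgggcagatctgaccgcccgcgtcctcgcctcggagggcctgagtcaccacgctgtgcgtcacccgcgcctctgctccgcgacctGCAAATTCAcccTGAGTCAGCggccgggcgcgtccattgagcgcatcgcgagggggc
Sod1 (chr16:90220512-90220761, + strand): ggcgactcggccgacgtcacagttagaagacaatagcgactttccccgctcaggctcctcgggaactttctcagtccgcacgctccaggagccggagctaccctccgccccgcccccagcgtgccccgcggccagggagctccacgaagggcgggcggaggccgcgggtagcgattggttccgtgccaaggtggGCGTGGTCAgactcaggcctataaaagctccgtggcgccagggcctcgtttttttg

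The capitals of Txnip are the only match to the carbohydrate response element form among the promoters of the 8 genes and Arrdc4, at positions −85 to −69 from the start. In Arrdc4, the relative of Txnip, capitals mark matches to the antioxidant response element form at −154 to −146 and −28 to −20 and to the RBPJ core at −79 to −74. Srxn1 held 3 matches to the antioxidant response element form, at −158 to −150, −57 to −49 and −45 to −37, and an RBPJ core at −177 to −172. Sod1 held the only other match to the antioxidant response element form among the 8 genes, at −56 to −48. The RBPJ core also occurred in the promoters of Sod2, Gpx3 and Nqo1, and neither Cat nor Gpx1 had a match to any of the forms. A match describes letters in this window and is not evidence that a factor binds there.

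**Figure D1:**
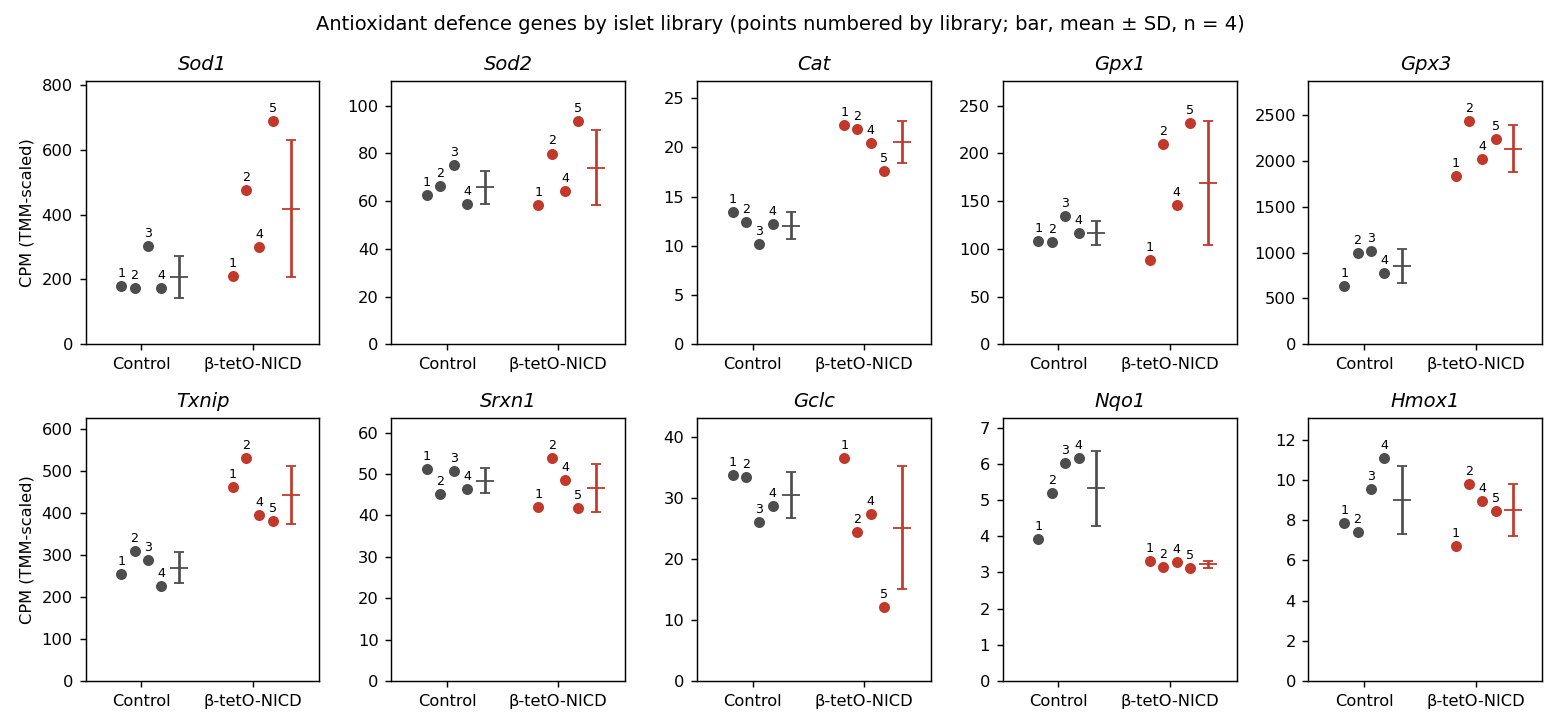
Level of each gene in CPM (vertical axis, from 0) in 4 control and 4 β-tetO-NICD islet libraries. Points are single libraries with their numbers, and bars are mean ± SD (n = 4). The points of the groups are apart for Cat, Gpx3, Txnip and Nqo1 and overlap for the other 6 genes.

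The superoxide dismutases act first in the chain. Sod1, the cytosolic copper and zinc enzyme (chr16:90220754-90226329), was at 181, 173, 305 and 173 CPM in controls and at 212, 476, 299.5 and 689 CPM in the β-tetO-NICD libraries. Control 3 was above β-tetO-NICD libraries 1 and 4, so the groups overlapped, and the β-tetO-NICD libraries spread over a wider range than the controls. The means were 208 ± 64.7 and 419 ± 211 CPM (SD, n = 4), and the log2 FC of 1.01 (95% interval 0.21 to 1.81) had an adjusted p of 0.103. Between libraries of positive length trend the log2 ratio of Sod1 was 0.27, and between those of negative trend 0.68. It was 1.99 between the libraries with Eif2s3y counts and 0.44 between those without. Scaf4 overlaps Sod1 on the opposite strand, and whether the counting used strand is not given in the sources used here. The log2 FC of Scaf4 was −0.59 (adjusted p = 0.104).

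Sod2, the manganese enzyme of mitochondria (chr17:13006846-13040063), ranged from 58.8 to 75.3 CPM in controls and from 58.5 to 93.5 CPM in β-tetO-NICD libraries. Every control lay within the range of the β-tetO-NICD libraries. The log2 FC was 0.17 (95% interval −0.21 to 0.56, adjusted p = 0.497).

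Catalase, a heme enzyme of peroxisomes that splits hydrogen peroxide without glutathione or thioredoxin, rose. Cat (chr2:103453849-103485160, minus strand) was at 13.4, 12.4, 10.2 and 12.2 CPM in controls and at 22.3, 21.9, 20.5 and 17.6 CPM in the β-tetO-NICD libraries, from 258 to 300 counts and from 350 to 617 counts. The lowest β-tetO-NICD library, at 17.6 CPM, was above the highest control, at 13.4 CPM. The means of 12.05 ± 1.34 and 20.6 ± 2.11 CPM (SD, n = 4) gave a log2 FC of 0.77 (95% interval 0.44 to 1.11, adjusted p = 0.0168). The log2 ratio of Cat was 0.81 between libraries of positive length trend and 0.97 between those of negative trend, and 0.52 and 0.87 between the libraries with and without Eif2s3y counts. The call was lost without control 2 (adjusted p = 0.0503), control 4 (0.0534), β-tetO-NICD library 2 (0.0638) or β-tetO-NICD library 4 (0.0578), while the 8 fits that omitted a library gave log2 FCs of 0.70 to 0.84. Of 6 further peroxisomal genes, 0 were called by edgeR's test and by limma-voom and 1, Abcd3, by DESeq2, and 2 had an unadjusted p under 0.05, Abcd3 and Pex11a, both with negative log2 FCs and groups that did not overlap. Abcd3, a transporter gene and the most abundant of them per transcript length, had a log2 FC of −0.32 (adjusted p = 0.131).

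Glutathione peroxidases reduce peroxides at the expense of glutathione. Gpx3, the secreted enzyme (chr11:54902453-54910377), changed most among the 10 genes. Its level was 629.9, 996, 1015 and 781 CPM in controls and 1838, 2434, 2026 and 2236 CPM in the β-tetO-NICD libraries. Every β-tetO-NICD library was far above every control. The mean rose from 855 ± 184 to 2133 ± 258 CPM (SD, n = 4), which is 2.49-fold, with a log2 FC of 1.32 (standard error 0.21, 95% interval 0.84 to 1.80, adjusted p = 0.00753). Gpx3 passed the threshold in all 8 fits that left out 1 library. Its log2 ratio was 1.20 and 1.14 between libraries of positive and of negative length trend, and 1.33 and 1.35 between libraries with and without Eif2s3y counts.

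Gpx1, the ubiquitous cytosolic enzyme (chr9:108338903-108340343), differed from Gpx3. It was at 109, 107, 135 and 117 CPM in controls and at 88.7, 209.9, 146 and 232 CPM in the β-tetO-NICD libraries. Library 1 was the lowest of all 8, and the other 3 β-tetO-NICD libraries were above every control. The log2 FC of 0.53 (95% interval −0.07 to 1.13) had an adjusted p of 0.198. Without β-tetO-NICD library 1 it was 0.75 (adjusted p = 0.0156), in a fit that called 4954 of the 14902 genes tested there. With an offset for transcript length it was 0.01. The log2 ratio was −0.32 between libraries of positive length trend and 0.54 between those of negative trend, which are of opposite sign.

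Of the 4 further glutathione peroxidase genes tested, 1 was called by edgeR's test and 2 by DESeq2 (Gpx2 and Gpx7), and 3 had an unadjusted p under 0.05 (these and Gpx8). Gpx2, an enzyme known from epithelia of the gut, was at 10.3, 9.79, 5.02 and 4.18 CPM in controls and at 12.49, 29.2, 19.2 and 36.4 CPM in the β-tetO-NICD libraries. The groups did not overlap, although control 1 and β-tetO-NICD library 1 lay close together. Its log2 FC was 1.73 (adjusted p = 0.0309), and the call held in 2 of 8 fits that left out 1 library. Gpx4, which protects membrane lipids and was the most abundant of the list per transcript length, had a log2 FC of 0.62 (adjusted p = 0.206) with overlapping groups. All 4 log2 FCs were positive, with a median of 0.87.

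**Figure D2:**
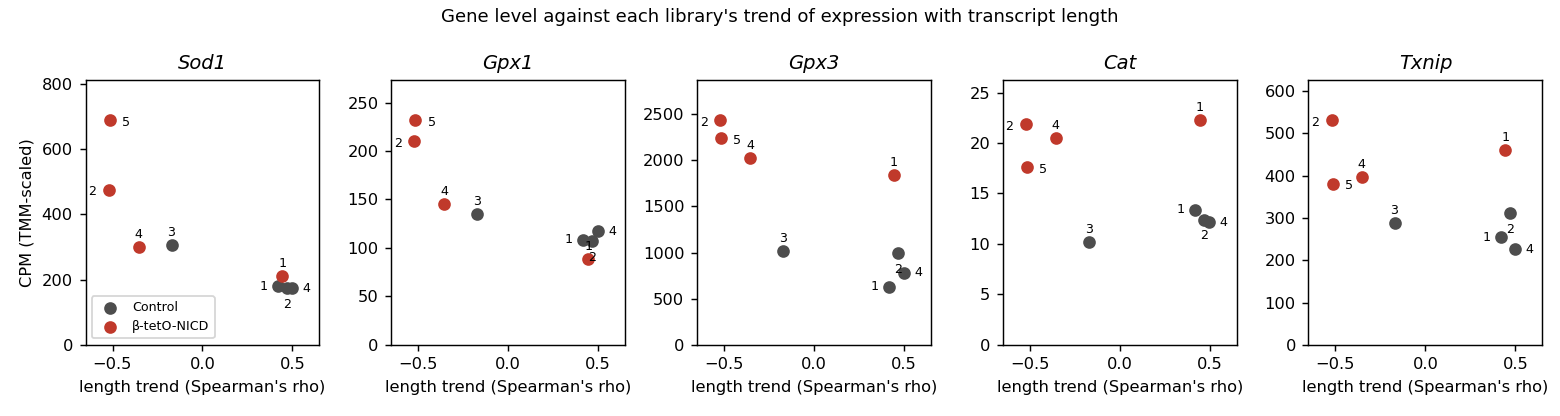
Level of 5 genes in CPM (vertical axis, from 0) against the length trend of each library (horizontal axis, Spearman's correlation between deviation from the 8-library mean and transcript length, 14659 genes). Grey points are controls and red points β-tetO-NICD libraries, with their numbers. Sod1 and Gpx1 are highest in β-tetO-NICD libraries 2 and 5, which have the most negative trends, whereas for Gpx3, Cat and Txnip β-tetO-NICD library 1 also lies above every control.

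Txnip, whose product binds and inhibits thioredoxin and also restrains glucose uptake (chr3:96557957-96561883), rose as well. It was at 255, 311, 288 and 226 CPM in controls and at 462, 532, 396 and 381 CPM in the β-tetO-NICD libraries. The groups did not overlap, and β-tetO-NICD library 5 was the one nearest to the controls. The means of 270.1 ± 37.1 and 443 ± 68.7 CPM (SD, n = 4) gave a log2 FC of 0.71 (95% interval 0.32 to 1.10, adjusted p = 0.0409). The 8 fits that omitted a library gave log2 FCs of 0.62 to 0.79, but Txnip passed the threshold only without β-tetO-NICD library 1 or 5. Without each of the other 6 libraries the adjusted p ran from 0.0582 (control 3 left out) to 0.129 (β-tetO-NICD library 2 left out). The call was also lost with no filter on low counts (adjusted p = 0.0539), with Eif2s3y as a covariate (0.0733) and with the sign of the length trend as a covariate (0.0710). Log2 ratios of Txnip were 0.81 and 0.60 between libraries of positive and of negative length trend, and 0.51 and 0.77 between libraries with and without Eif2s3y counts. The antisense gene Gm15441 overlaps Txnip on the other strand and was not analysed here.

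Among 7 regulators and relatives of Txnip, edgeR's test called 1 higher and 1 lower, and DESeq2 called 4, adding Arrdc2 and Mlxip. Arrdc4, an arrestin-family relative that also curbs glucose uptake, was at 12.3, 15.4, 16.1 and 11.9 CPM in controls and at 38.5, 57.4, 35.6 and 32.4 CPM in the β-tetO-NICD libraries. Its lowest β-tetO-NICD library was well above the highest control, and library 2 was highest, as for Txnip. The log2 FC was 1.56 (standard error 0.21, adjusted p = 0.00304), and it passed the threshold in all 8 fits that left out 1 library. Mlxipl, the gene of ChREBP, was at 178, 147, 94.0 and 132 CPM in controls and at 93.7, 39.1, 58.4 and 64.97 CPM in β-tetO-NICD libraries. Its groups just failed to overlap, control 3 and β-tetO-NICD library 1 being nearly level. The log2 FC was −1.11 (adjusted p = 0.0445), a call that held in 2 of the 8 fits that left out 1 library. Mlxip, the gene of MondoA, had a log2 FC of −0.89 (adjusted p = 0.109) and overlapped between groups, and Mlx, the partner of both factors, had −0.06 (adjusted p = 0.772). Pklr, a known ChREBP target of the liver, had a log2 FC of −0.09 (adjusted p = 0.760).

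**Figure D3:**
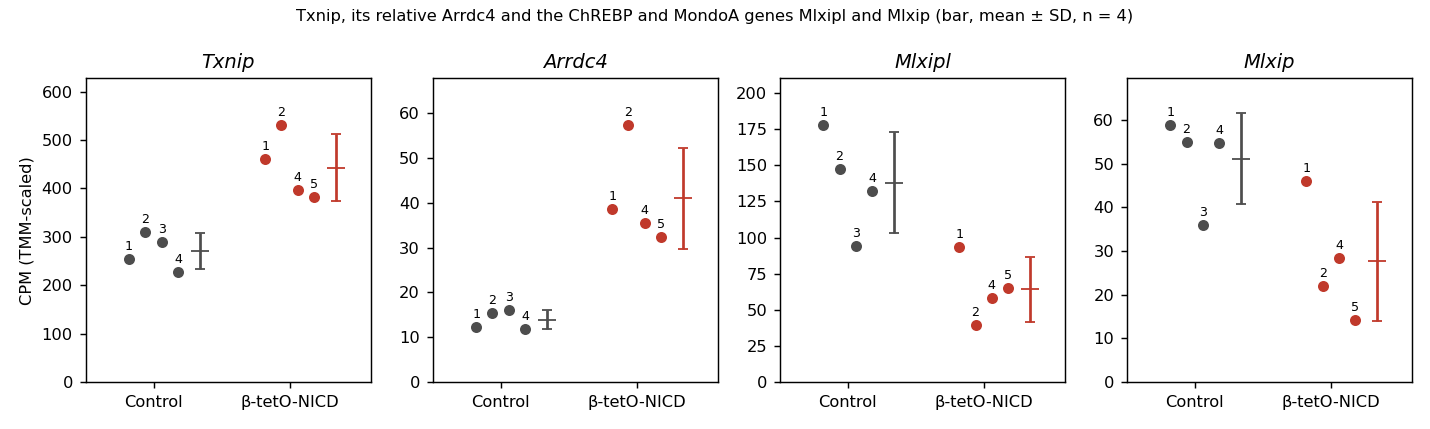
Levels of Txnip, Arrdc4, Mlxipl and Mlxip in CPM (vertical axes, from 0) in control (grey) and β-tetO-NICD (red) libraries, numbered, with mean ± SD (n = 4). The groups are apart for Txnip and Arrdc4, where β-tetO-NICD is higher, and for Mlxipl, where it is lower, and they overlap for Mlxip.

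The thioredoxins on which Txnip acts, their reductases and the glutaredoxins, which use glutathione, had 0 of 9 genes called by edgeR's test, as did 0 of 6 peroxiredoxins, which use thioredoxin to reduce peroxide. At an unadjusted p under 0.05 these counts were 1 and 3, and DESeq2 called 1 and 2 genes. Txn1, the cytosolic thioredoxin, had a log2 FC of 0.77 (adjusted p = 0.0930) and Txnrd1, its reductase, −0.13 (adjusted p = 0.554). Log2 FCs were positive for 5 of 6 peroxiredoxins, with a median of 0.52. Prdx2 and Prdx1, the most abundant per transcript length, had 0.55 and 0.49 (adjusted p = 0.138 and 0.181). The peroxiredoxins called by DESeq2 were Prdx4 and Prdx5, with log2 FCs of 0.82 and 0.84 by edgeR (adjusted p = 0.0605 and 0.0865). The groups did not overlap for Prdx4 and overlapped for Prdx5.

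Srxn1 encodes sulfiredoxin, which repairs peroxiredoxins that peroxide has inactivated (chr2:152105516-152111376). It ranged from 45.1 to 51.3 CPM in controls and from 41.9 to 53.9 CPM in β-tetO-NICD libraries. The groups overlapped throughout, and the log2 FC of −0.05 had a 95% interval of −0.35 to 0.24 (adjusted p = 0.793).

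Gclc, the catalytic subunit of the enzyme that limits glutathione synthesis (chr9:77754535-77794485), was at 33.6, 33.3, 25.9 and 28.6 CPM in controls and at 36.5, 24.4, 27.3 and 12.1 CPM in the β-tetO-NICD libraries. β-tetO-NICD libraries gave both the highest and the lowest of the 8 values, with library 5 far below the rest. The log2 FC was −0.28 (95% interval −0.91 to 0.35, adjusted p = 0.507), and −1.36 was the log2 ratio between the libraries with Eif2s3y counts against −0.02 between those without. None of 6 further genes of glutathione synthesis and turnover was called by edgeR's test or by DESeq2, and 1, Slc7a11, had an unadjusted p under 0.05. Gclm, the regulatory subunit, had a log2 FC of −0.18 (adjusted p = 0.350), and the glutathione reductase gene Gsr and the glutathione-degrading gene Chac1, the most abundant per transcript length over both groups together, had 0.16 and −0.27 (adjusted p = 0.569 and 0.698).

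Nqo1 encodes a quinone reductase that is among the most widely used readouts of NRF2 (chr8:107388225-107403206, minus strand). It was low, at 3.92, 5.19, 6.01 and 6.16 CPM in controls and at 3.32, 3.14, 3.29 and 3.12 CPM in the β-tetO-NICD libraries, or from 85 to 152 and from 62 to 99 counts. Every β-tetO-NICD library was below every control, control 1 being nearest, and the β-tetO-NICD libraries were close to one another, closer than counting error at these counts would give. The means were 5.32 ± 1.03 and 3.22 ± 0.102 CPM (SD, n = 4), and the log2 FC of −0.73 (95% interval −1.20 to −0.25) did not pass the threshold (adjusted p = 0.0659). It passed with DESeq2 (adjusted p = 0.0135), with an offset for transcript length (0.0231) and without β-tetO-NICD library 1 (0.0388). Those fits called 2739, 1550 and 4954 of all genes, where the fit reported here called 1020.

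Hmox1, the inducible heme oxygenase and also a target of NRF2 (chr8:75093621-75100589), ranged from 7.43 to 11.1 CPM in controls and from 6.74 to 9.82 CPM in β-tetO-NICD libraries. The ranges overlapped, and the log2 FC of −0.08 (95% interval −0.52 to 0.36) had an adjusted p of 0.785. Neither of 2 further heme genes was called by edgeR's test or by DESeq2, and 0 had an unadjusted p under 0.05. Hmox2, the constitutive heme oxygenase, and Blvra, which turns biliverdin into bilirubin, had log2 FCs of 0.10 and 0.25 (adjusted p = 0.709 and 0.397).

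**Figure D4:**
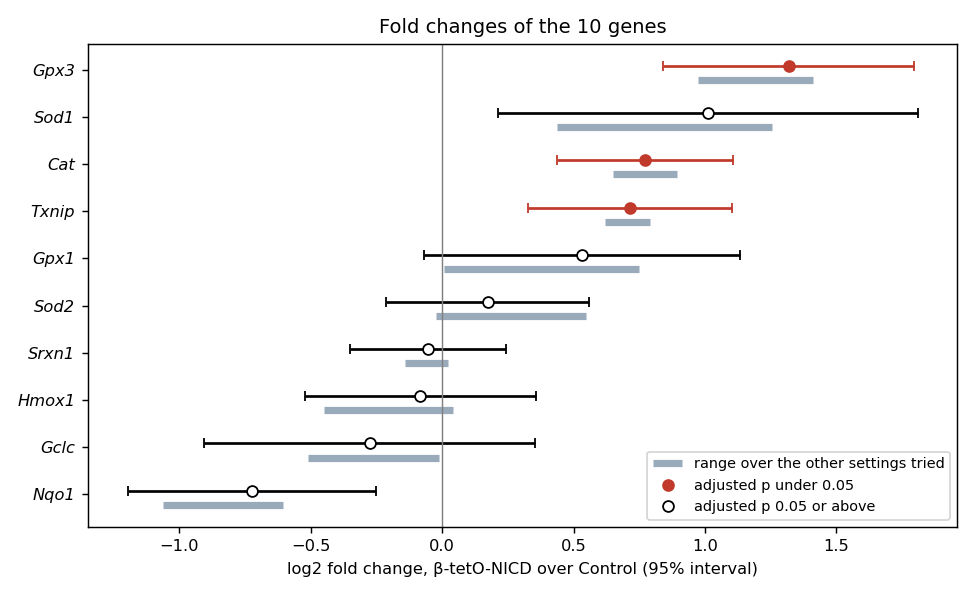
Log2 FC of each of the 10 genes, β-tetO-NICD over control (horizontal axis), with its 95% interval (points and whiskers, red where the adjusted p is under 0.05). Grey bars span the estimates under the 22 other settings tried. Only Sod2, Srxn1 and Hmox1 have bars that reach both sides of 0.

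The NRF2 system was described through 9 regulators and 15 further targets. None of the 9 regulators was called by edgeR's test, while 4 had an unadjusted p under 0.05 (Bach1, Cul3, Mafg and Nfe2l1, all with negative log2 FCs) and DESeq2 called 1, Mafg. Nfe2l2, the gene of NRF2 itself, had a log2 FC of −0.20 (adjusted p = 0.312), its inhibitor Keap1 0.04 (adjusted p = 0.831), its binding partner Mafg −0.40 (adjusted p = 0.0740) and the competing repressor Bach1 −0.70 (adjusted p = 0.126). The most abundant per transcript length were Sqstm1, an adaptor that withdraws Keap1, with −0.10 (adjusted p = 0.703), and the NRF2 relative Nfe2l1, with −0.38 (adjusted p = 0.133). The median log2 FC of the 9 regulators was −0.20.

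Of the 15 further targets, edgeR's test called 3 higher and 0 lower, with a median log2 FC of 0.27. DESeq2 called 4, adding the glutathione transferase gene Gsta4 (log2 FC 1.36 by edgeR, groups not overlapping), and 6 had an unadjusted p under 0.05, with Fth1 and Taldo1 besides. Mgst1, a membrane-bound glutathione transferase that detoxifies lipid peroxides, was at 4.06, 6.03, 4.83 and 5.43 CPM in controls and at 48.8, 95.05, 91.6 and 81.5 CPM in the β-tetO-NICD libraries. All β-tetO-NICD libraries were many times above the controls, and the log2 FC of 3.96 (standard error 0.25, adjusted p = 4.6e-05) was the largest among the 87 further redox genes. It passed the threshold in each of the 22 other settings tried, the only one of the 10 genes and the 9 called redox genes to do so. Osgin1, a growth inhibitor induced by oxidative stress, rose from 9.46 ± 2.37 to 22.2 ± 5.38 CPM (SD, n = 4) with no overlap (log2 FC 1.23, adjusted p = 0.0154), a call lost without β-tetO-NICD library 2 (adjusted p = 0.0559) and with the length-trend covariate (0.0510). Cbr3, a carbonyl reductase, rose from 2.44 ± 0.930 to 7.04 ± 2.95 CPM (SD, n = 4; log2 FC 1.52, adjusted p = 0.0393), but control 3 was above β-tetO-NICD library 1. The Cbr3 call held in 2 of 8 fits that left out 1 library, those without control 3 or β-tetO-NICD library 1. The ferritin genes Ftl1 and Fth1, which store iron and were the most abundant targets per transcript length, had log2 FCs of −0.27 and 0.62 (adjusted p = 0.424 and 0.137).

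Across all 87 further redox genes, of which 83 were tested, 7 were called higher and 2 lower, against 4.19% and 2.57% of all genes tested. Their median log2 FC was 0.21. Cyba, a subunit of the NADPH oxidase that forms superoxide, was the only one of 7 tested sources of reactive oxygen to be called by edgeR's test. The level of Cyba was 5.58, 4.39, 5.73 and 3.45 CPM in controls and 6.41, 12.9, 8.93 and 16.8 CPM in the β-tetO-NICD libraries (log2 FC 1.23, adjusted p = 0.0450). The groups of Cyba were close at β-tetO-NICD library 1, and the call held in 1 of 8 fits that left out 1 library. Cyba is abundant in phagocytes, and the summed level of 7 macrophage markers ranged from 139 to 185 CPM in controls and from 206 to 298 CPM in β-tetO-NICD libraries, with 1 marker, C1qa, called higher. Their part in the result was not tested. Xdh, a xanthine oxidase and the next most abundant source per transcript length over both groups together, had a log2 FC of −0.29 (adjusted p = 0.517).

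Several of these enzymes, the glutathione peroxidases Gpx1 and Gpx3 among them, carry selenocysteine. Of 7 genes of selenoproteins and their synthesis, edgeR's test called 1 higher and 1 lower, and DESeq2 called 4, adding Eefsec and Msrb1, both with positive log2 FCs. Sephs2, which makes the selenium donor, was called higher (36.2 ± 8.78 to 70.6 ± 17.6 CPM, SD, n = 4, log2 FC 0.97, adjusted p = 0.0357). Sepsecs, which completes selenocysteine on its tRNA, was called lower (79.9 ± 8.55 to 44.7 ± 14.1 CPM, SD, n = 4, log2 FC −0.84, adjusted p = 0.0435). Both were without overlap, and each call was lost in at least 6 of 8 fits that left out 1 library. Selenop and Selenow (Sepp1 and Sepw1 in the count table), the most abundant of this list per transcript length, had log2 FCs of 0.25 and 0.41 (adjusted p = 0.296 and 0.297). The remaining lists had no call by edgeR's test or by DESeq2 and no unadjusted p under 0.05, with 0 of 2 for superoxide (Ccs, the copper chaperone of Sod1, 0.42, adjusted p = 0.231, and the extracellular dismutase Sod3, 0.61, adjusted p = 0.223) and 0 of 3 for the sestrins (Sesn2 0.18, adjusted p = 0.478, and Sesn3 −0.35, adjusted p = 0.295).

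**Figure D5:**
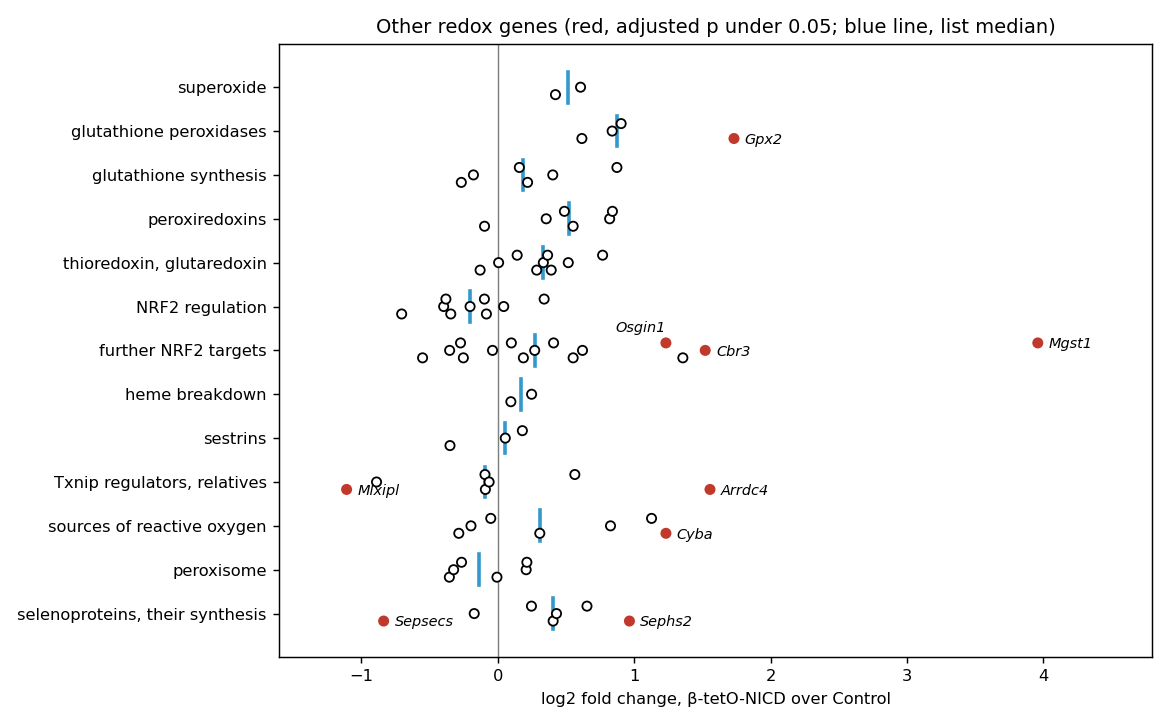
Log2 FC (horizontal axis, β-tetO-NICD over control) of each of the 83 further redox genes tested, by list (rows). Red points passed an adjusted p of 0.05, and blue lines are list medians. The 7 genes called higher and the 2 called lower are named, and Mgst1 stands far to the right of the rest.

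Levels can be compared between genes only per length of transcript. In CPM per kilobase of the principal transcript, Gpx3 was the highest of the 10 genes in the mean of either group (536 ± 115 in controls and 1338 ± 162 in β-tetO-NICD islets, SD, n = 4), followed by Sod1 (324 ± 101 and 654 ± 329), Gpx1 (109 ± 11.8 and 158 ± 60.5) and Txnip (96.6 ± 13.3 and 158 ± 24.6). Gpx1 and Txnip did not differ beyond their spread in either group. Srxn1 and Sod2 followed at 17.2 ± 1.09 and 11.2 ± 1.21 in controls and at 16.6 ± 2.05 and 12.7 ± 2.70 in β-tetO-NICD islets. Gclc (8.88 ± 1.10), Hmox1 (5.74 ± 1.07), Cat (4.61 ± 0.514) and Nqo1 (3.43 ± 0.662) were lowest in controls, where single libraries of Hmox1 and Cat overlapped, as did those of Cat and Nqo1. In β-tetO-NICD islets Cat (7.87 ± 0.807) stood above Gclc (7.33 ± 2.95) by less than the spread and above Hmox1 (5.41 ± 0.826), and Nqo1 remained lowest (2.07 ± 0.0656). In controls Gpx3 and Sod1 overlapped between single libraries only through control 3.

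The genes whose levels followed those of the called genes most closely over the 8 libraries were found by the root mean square difference of their log2 deviations, among 12747 genes that averaged 50 normalized counts or more. For Cat these were Wdr91, an endosomal gene, Rtkn, and Dusp8, a MAP kinase phosphatase, with differences of 0.0936, 0.0991 and 0.109. Nearest to Gpx3 were Gpc6, a glypican, Slc44a4, a transporter gene, and Rnf138rt1, at 0.157, 0.171 and 0.182. The profile of Txnip was nearest to those of Spry1, an inhibitor of growth factor signalling, Plekhb1 and Ccdc184, at 0.112, 0.123 and 0.124.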

How the data were processed

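The authors made stranded poly(A) libraries of islet RNA, used Kallisto for pseudoalignment to mouse transcripts (GRCm38) and deposited whole-number counts per gene symbol, not normalized. Versions, the annotation release, the rounding and the use of strand are not given in the sources used here. Methods name males for gene expression. A deposited table of the authors' own comparison (limma fold changes, p values and related statistics) was not used. Columns were assigned to groups by name.

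Fits were made in R 4.3.3 (edgeR 4.0.16). A gene was kept if 4 or more of the 8 libraries had 10 counts or more. Libraries were scaled by TMM and groups compared with edgeR's quasi-likelihood test without covariates, with Benjamini-Hochberg adjustment over 15082 genes and a threshold of 0.05. Adjusted p values are of this test where no other is given. The script was tested on simulated data. The labels number single mice, and no pair of libraries of the same group agreed within sampling noise. Pairs across the groups were not compared in this way. Counting error matters most for genes of few counts, such as Nqo1, and the floor of 3 counts covers counting error only.

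The 10 genes and the lists of further redox and marker genes were chosen with earlier results of these data known, so counts over them describe those genes. Named genes were the 10, each further redox gene past the threshold, the 2 most abundant per transcript length of each list, and the 3 genes nearest in profile to each called gene, among those averaging 50 normalized counts or more. Keap1, Nfe2l2, Mafg, Bach1, Cul3, Pex11a, Gpx7, Gpx8, Prdx4, Prdx5, Arrdc2, Gsta4, Taldo1, Eefsec, Msrb1, Hhex, Slc7a11, Mlxip, Pklr, Gclm, Scaf4 and C1qa were added after their values were seen. Some genes of the lists are not reported here. Coordinates and lengths are from GENCODE M21 (GRCm38), in which 97.2% of tested genes had a length. Promoters are from RefSeq (GRCm38.p6). The alternatives were DESeq2 1.42.0, limma-voom (limma 3.58.1), other normalizations and filters, removal of the 10 genes of most counts, length offsets, acinar and Eif2s3y covariates, the libraries without Eif2s3y counts, a replicate block and leaving out each library. The length-trend covariate and the offset from principal transcripts were added after seeing the data.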

Additional observations from a re-analysis of the deposited data

Results flagged for a closer look

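Of 38 sets of 4 libraries examined for the named members and called redox genes, 3 held a library far from the other 3 of its group, where chance gives about 1 in 20, or 1.9. Control 3 was at 305 CPM of Sod1 against 173 to 181 CPM in the other controls, a gap of 0.944 of the group's range. Control 3 also stood apart for Cbr3, at 3.84 CPM against 1.89 to 2.07 CPM (0.909 of the range). β-tetO-NICD library 1 was at 65.7 CPM of Sepsecs against 35.2 to 39.2 CPM in the other β-tetO-NICD libraries (0.868 of the range). In each case the outlying library has a length trend of the sign that prevails in the other group, a feature of the libraries whose part in these values was not tested.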

How the results depend on the processing

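The calls depended mainly on which libraries were included. Of all genes, 1020 were called, against 2739 with DESeq2, 1550 with the length offset, 1593 with the offset from principal transcripts, 608 with the sign of the length trend as a covariate, 104 in the libraries without Eif2s3y counts, and 319 (without β-tetO-NICD library 2) to 4954 (without β-tetO-NICD library 1) with each library left out. Of the 10 genes, 3 were called, against 5 with DESeq2, 0 in the libraries without Eif2s3y counts, where 3 had an unadjusted p under 0.05, and 1 to 6 with each library left out. Of the further redox genes, 9 were called, against 21 with DESeq2, 14 with either length offset, 5 with the Eif2s3y covariate, 1 in the libraries without Eif2s3y counts, 3 with the length-trend covariate, and 2 to 31 with each library left out. The log2 fold change changed sign for Sod2 (−0.022 without the libraries that have Eif2s3y counts and −0.011 with the length-trend covariate), Hmox1 (0.041 without control 4 and 0.015 without β-tetO-NICD library 1, in a range from −0.16 over the fits that left out 1 library) and Srxn1 (0.024 with upper-quartile normalization, which moved the median of all genes by 0.077). Causes were not tested. Gpx3, Cat, Txnip, Nqo1, Gclc, Sod1 and Gpx1 kept their direction in each of 22 settings, as did the 9 called redox genes. Among the values of single genes under the alternatives, 329 kept direction and side of the threshold, 77 no longer passed, 7 newly passed and 5 changed sign. Only replicate numbers 1 and 2 were settled for both groups, and their deviations correlated at 0.275 and −0.091. Other pairs of a control and a β-tetO-NICD library ran from −0.557 to 0.384, so these values cannot show whether mice of the same number were paired. With the replicate block, 970 genes, 3 of the 10 and 7 of the further redox genes were called. Cyba and Sephs2 lost their calls (adjusted p = 0.0668 and 0.0560), and no other call among the 10 genes and the 9 called redox genes changed. Depth was even between groups and limits only genes near the floor.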

Other observations

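Counts of Gpx3 were set against those of Gpx1 within each library. Library size does not affect such a ratio, but a length trend can where the transcripts differ in length. There were 5.80 to 9.30 counts of Gpx3 for each count of Gpx1 in controls and 9.65 to 20.7 in β-tetO-NICD libraries, lowest in library 5 and highest in library 1. Sod1 had 2.61 to 4.05 counts for each count of Sod2 in controls and 3.62 to 7.37 in β-tetO-NICD libraries, so these ranges overlapped. Taken by length trend, the ratio was 2.61 to 3.62 in libraries of positive trend and 4.05 to 7.37 in those of negative trend, without overlap. The principal transcripts of Sod1 and Sod2 have 641 and 5861 bases, and the part of the length trend in this ratio was not tested. The ratio of Txnip to Txn1 counts was 5.47 to 8.04 in controls and ran from 3.65 in β-tetO-NICD library 5 to 10.6 in library 1. Its groups overlapped, and the highest and the lowest ratio were both in β-tetO-NICD libraries.

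Of the 87 further redox genes, 4 had too few counts to be tested, namely Gpx6, Nox1, Duox1 and Duox2, and their mean level was at most 0.128 CPM in either group.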
